A study of Mus musculus with 4 samples.

Results

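Ccl5-low Cd8 T cells are blood cells with T cell receptor and Cd8 transcripts that lack the high Ccl5 level of the other Cd8 T cells. They were chosen by transcript counts: at least 1 UMI of Cd3d, Cd3e and Cd3g together, at least 2 of Cd8a and Cd8b1 together, at most 2 of Ccl5, none of Gzmk, and at most 2 of Cd79a and 4 of Lyz2, the last limits keeping out cells with much B cell or myeloid RNA. A UMI, or unique molecular identifier, stands for 1 captured RNA molecule. The rule found 330 of 14588 cells. Peripheral blood came from C57BL/6 female mice aged 4 months (young) or 24 months (old), with no further treatment or genetic change given. Each of the 2 samples per age held blood of 2 mice mixed before the cells were separated, so that n = 2 pools per age and single mice cannot be resolved. Mononuclear cells were separated on a density medium, red cells were lysed, and single cells were run on the 10x Chromium system, which reads the 3′ end of each transcript.

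Cd8 T cells recognize peptides on MHC class I molecules and kill infected or transformed cells. Before they meet their antigen they are naive: they carry the lymph node homing receptor Ccr7, depend on the transcription factors Tcf7 and Lef1, and recirculate between blood and lymphoid tissue. After stimulation or by cytokine-driven expansion they become memory or effector cells, which store chemokines such as Ccl5 and cytotoxic granule proteins. New naive cells come from the thymus, which shrinks with age.

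The promoters of 4 genes that set these cells apart from the 2 neighboring groups of T cells described below are shown for reference: Dapl1, Ccr9 and Rgcc, which were higher in them than in both groups, and Nkg7, which lay between the groups. They are the 250 bases before the annotated start in RefSeq, on GRCm38.p6, the assembly also called mm10, written 5′ to 3′ along the gene, with searched motifs in capitals. The motifs were CTTTGAT, the core bound by Tcf7 and Lef1, and TGTGGT, a core bound by Runx factors, on either strand.
Dapl1, chr2:59484403-59484652, plus strand: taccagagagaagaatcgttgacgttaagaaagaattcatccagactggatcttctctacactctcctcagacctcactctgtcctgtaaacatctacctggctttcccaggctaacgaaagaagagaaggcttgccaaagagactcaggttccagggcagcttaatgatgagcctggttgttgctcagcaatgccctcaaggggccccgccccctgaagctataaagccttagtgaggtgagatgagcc
Ccr9, chr9:123766961-123767210, plus strand: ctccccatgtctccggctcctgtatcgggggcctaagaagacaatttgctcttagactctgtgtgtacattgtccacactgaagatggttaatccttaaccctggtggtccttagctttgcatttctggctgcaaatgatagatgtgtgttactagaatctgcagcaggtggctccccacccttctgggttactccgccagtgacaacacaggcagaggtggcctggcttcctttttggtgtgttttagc
Rgcc, chr14:79301636-79301885, minus strand: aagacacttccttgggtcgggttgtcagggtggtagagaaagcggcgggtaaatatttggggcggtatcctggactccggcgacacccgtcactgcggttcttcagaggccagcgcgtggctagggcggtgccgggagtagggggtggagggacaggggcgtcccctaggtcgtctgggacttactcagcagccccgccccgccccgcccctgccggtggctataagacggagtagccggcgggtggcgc
Nkg7, chr7:43436888-43437137, plus strand: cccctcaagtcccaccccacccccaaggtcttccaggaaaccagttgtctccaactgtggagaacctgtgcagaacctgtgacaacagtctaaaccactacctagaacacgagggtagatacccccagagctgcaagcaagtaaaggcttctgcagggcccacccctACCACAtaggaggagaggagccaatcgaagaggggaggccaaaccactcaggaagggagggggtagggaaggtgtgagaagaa
One match was present, of TGTGGT on the opposite strand in the Nkg7 window, beginning 83 bases before the start. CTTTGAT was present in 3.21% and TGTGGT in 14% of 32851 windows of the same length, and a match or its lack says nothing here about binding.

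The young samples held 223 and 98 Ccl5-low Cd8 T cells and the old samples 5 and 4. Of all cells these were 5.72% (exact binomial 95% interval 5.01 to 6.49) and 2.54% (2.07 to 3.09) in the young samples, against 0.108% (0.0350 to 0.251) and 0.183% (0.0499 to 0.468) in the old. The mean share was 4.13% ± 2.24 in young and 0.145% ± 0.0532 in old blood (SD, n = 2 pools), a 28.4-fold difference. Every old value lay below every young one, but the young pools themselves differed more than the old. Intervals cover counting error only.

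Old values were also the lower within T cells, by 8.31-fold among cells with Cd3 UMIs and 10.5-fold among Cd8 T cells. Cells with Cd3 UMIs were counted here only within the same limits on Cd79a and Lyz2. Of these, the Ccl5-low Cd8 T cells made up 17.5% and 9.08% in the young samples and 1.40% and 1.80% in the old. Of all Cd8 T cells, taken as cells that met the same limits on Cd3, Cd8, Cd79a and Lyz2, they made up 63.5% (223 of 351) and 47.8% (98 of 205) in young blood and 3.79% (5 of 132) and 6.78% (4 of 59) in old blood. The means were 55.7% ± 11.1 and 5.28% ± 2.12 (SD, n = 2 pools). With 2 pools per age there are 6 labellings, so that a two-sided exact permutation test cannot go below p = 0.333, and it gave that value for all 3 shares.

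**Figure D1:**
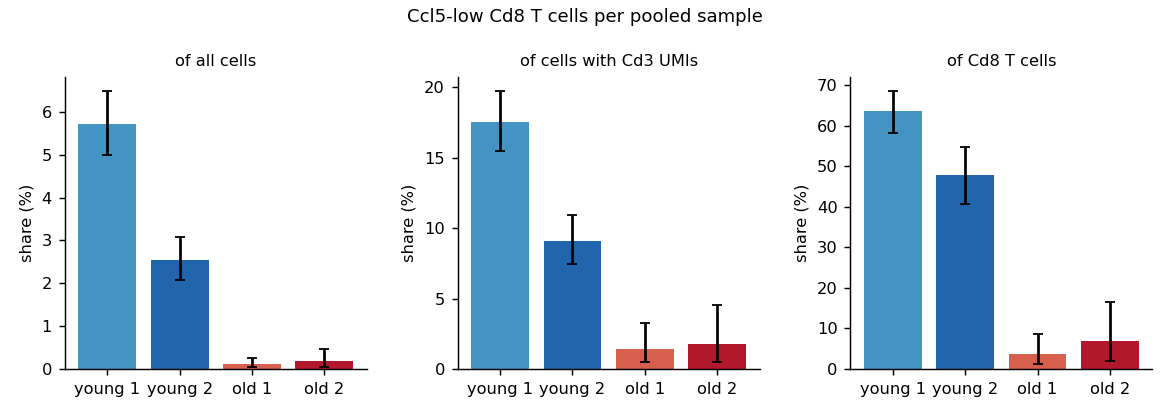
Share of Ccl5-low Cd8 T cells in each of the 4 pooled samples, in percent of all cells (left), of cells with Cd3 UMIs (middle) and of Cd8 T cells (right). The middle and right panels count only cells within the limits on Cd79a and Lyz2. Bars are the shares and error bars exact binomial 95% intervals, and the old samples stand at 3.79% and 6.78% of Cd8 T cells against 63.5% and 47.8% in the young.

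The numbers of cells were also tested with edgeR across 6 classes, a test chosen after the shares had been seen. It used 1 common spread between pools for all classes, so that the spread of this class alone is not what its p-value measures. The Ccl5-low Cd8 T cells had an old over young log2 fold change by edgeR of -4.91 with an SE of 0.74 (adjusted p = 0.000491). The Cd8 T cells with at least 3 Ccl5 UMIs, which numbered 128 and 107 in young and 127 and 55 in old samples, showed no call (-0.20, SE 0.42, adjusted p = 0.70, edgeR). In all, 9 old Cd8 T cells were of the Ccl5-low kind and 182 had Ccl5. The Cd4 T cells without S100a6 UMIs, the naive-like cells of the Cd4 lineage, were 183 and 107 in young and 7 and 9 in old samples (-3.90, SE 0.66, adjusted p = 0.00057, edgeR).

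Ccl5 counts per cell spread the Cd8 T cells over a wide range, with most old cells at its high end. In young sample 1, 136, 69 and 18 cells had 0, 1 and 2 Ccl5 UMIs, 7 cells had 3 to 5, and 121 had 6 or more. Young sample 2 had 51, 39 and 8 cells with 0, 1 and 2, 10 with 3 to 5 and 97 with 6 or more. In the old samples 125 of 132 and 55 of 59 Cd8 T cells had 6 or more. Over all samples 26 cells had 2 and 19 had 3 to 5, against 192 with 0 and 398 with 6 or more.

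Ccl5 UMIs also occurred in B cells, which do not make this chemokine at such levels: 30.5% and 36.6% of young and 36.8% and 19.3% of old B cells had at least 1 (B cells being cells with 3 or more Cd79a UMIs and no Cd3 UMI). At least 3 Ccl5 UMIs were seen in only 1.07% and 1.86% of young and 2.57% and 0.490% of old B cells. The median depth of B cells was 2470 UMIs and that of the Ccl5-low Cd8 T cells 3176. After thinning every cell to 1000 UMIs, 13.03% of the Ccl5-low Cd8 T cells and 12.2% of B cells had a Ccl5 UMI (41.8% and 32.4% before). The rule holds the first share low, since it allows at most 2 Ccl5 UMIs, and B cells had no such limit. The 2 shares therefore cannot decide whether the 1 or 2 UMIs within the limit are expression. Platelets also carry Ccl5 RNA, and the summed level of 6 platelet markers moved with age in the Cd8 T cells with Ccl5, at 0 and 8.96 CPM in young and 478 and 559 CPM in old samples. Its part in the Ccl5 counts was not tested, and the old B cells gave the shares above.

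**Figure D2:**
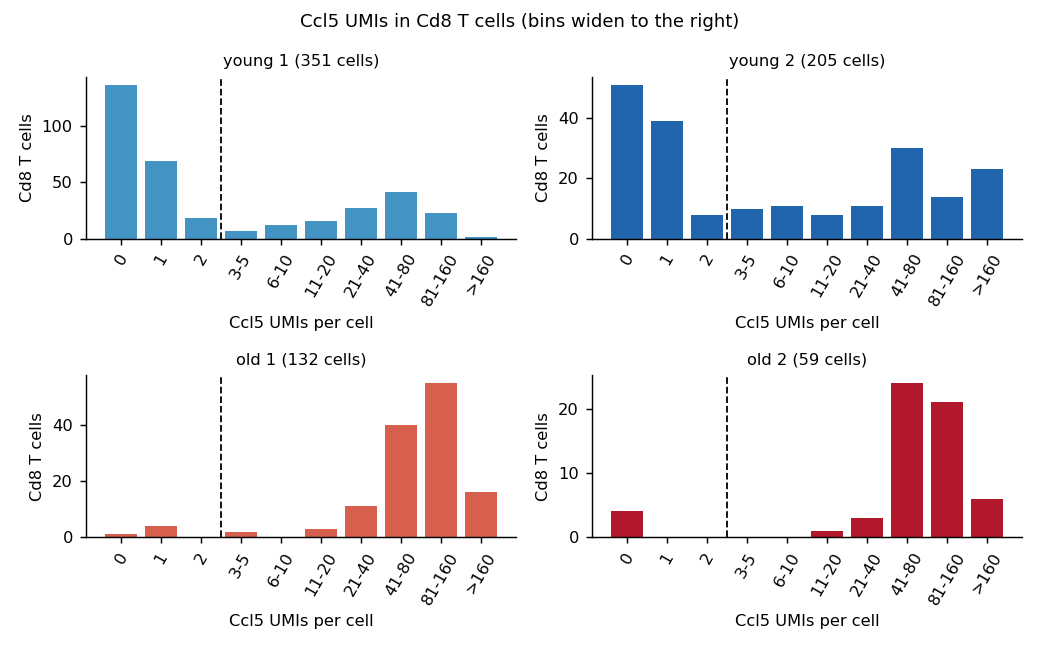
Number of Cd8 T cells (vertical axis) by Ccl5 UMIs per cell (horizontal axis, bins that widen to the right) in each sample, with the limit of the rule as a dashed line. Both young samples have cells on either side of the limit, and the old samples lie almost wholly on the right, with 125 of 132 and 55 of 59 cells at 6 or more UMIs.

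Cells just inside and just outside the limit on Ccl5 are given here as a description. The 26 cells with 2 Ccl5 UMIs had 471 CPM of Dapl1 and 310 CPM of Lef1, where CPM, counts per 1e+06, scale the UMIs of a gene to the total UMIs of those cells. The 10 cells with 3 had 299 and 424 CPM, and the 398 cells with 6 or more had 90.0 and 146 CPM. S100a6, a calcium-binding protein of activated and memory T cells, was at 64.2, 150 and 1186 CPM in the same order. Within the limit, the 192 cells with 0, 112 with 1 and 26 with 2 Ccl5 UMIs had 515, 403 and 310 CPM of Lef1. In the same order Ly6c2, a surface protein, was at 274, 498 and 513 CPM, Dapl1 at 671, 697 and 471 CPM and S100a6 at 62.9, 71.5 and 64.2 CPM. On the limit for Cd8, 41 cells had exactly 2 Cd8a and Cd8b1 UMIs, and a further 86 cells with 1 such UMI and no Cd4 UMI were left out by it.

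Cd8b1, the beta chain of the Cd8 coreceptor and part of the rule, was at 1488 and 1308 CPM in young and 814 and 932 CPM in old samples, and Cd8a, the alpha chain, at 452 and 454 CPM and at 465 and 593 CPM. Gzmk was 0 by the rule. The rule required these, so that they are no test of identity. Among markers that the rule did not use, both of which the Cd4 T cells described below also carried, Dapl1, a gene high in naive T cells, was at 621 and 796 CPM in young samples, and Lef1 at 487 and 403 CPM. After thinning to 1000 UMIs, 38.5% of the Ccl5-low Cd8 T cells had a Dapl1 UMI (60.6% before), against 0.169% of B cells, and 36.4% had a Lef1 UMI (67.6% before), against 0.748% of B cells. The genes lie at chr6:71322788-71337492 (Cd8b1), chr6:71373427-71379171 (Cd8a), chr2:59484653-59505020 (Dapl1), chr3:131110297-131224357 (Lef1) and chr11:83525778-83530518 (Ccl5).

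Markers of other cells were summed per sample, and red cell RNA was the most abundant. Summed over the young samples the 6 listed B cell markers stood at 296 to 329 CPM, the 10 myeloid ones at 470 to 481, the 8 NK cell ones at 119 to 130 with Klrb1c at 0 in every sample, the 7 Cd4 lineage ones at 79.3 to 112, the 6 platelet ones at 4.19 to 6.10 and the 3 gamma delta T cell ones at 3.05 to 5.58. In the old samples these sums rest on 0 to 21 UMIs per list and sample and ranged from 0 to 175 CPM for B cells, 763 to 1222 for myeloid cells, 84.8 to 407 for NK cells, 0 to 424 for the Cd4 lineage, 170 to 349 for platelets and 0 to 58.2 for gamma delta T cells. Haemoglobin transcripts, the red cell list, were at 4366 and 82500 CPM in young and at 280500 and 9662 CPM in old samples. In old sample 1 a single cell held most of it, with 84.2% of its 5452 UMIs from that list, and 6 cells of young sample 2 were over 10%. Of all barcodes, 108 occurred in more than 1 library, among them those of 5 Ccl5-low Cd8 T cells. Depth was 716602 and 327948 UMIs over the young and 17189 and 11799 UMIs over the old Ccl5-low Cd8 T cells.

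The Ccl5-low cells were first compared with the Cd8 T cells with Ccl5 of the same samples, to describe how cells on the 2 sides of the limit differ beyond the genes of the rule. Of the lists, 10 of 27 naive genes tested were higher in the Ccl5-low cells, and 21 of 33 memory and 15 of 19 cytotoxic genes were lower. Of 3576 genes tested in sums per sample with the sample as a block, 44 were higher (1.23%) and 113 lower (3.16%) by edgeR at an adjusted p under 0.05. Irrespective of the test, 4.25% of genes were higher and 15.3% lower in all 4 samples. The cells were divided by Ccl5, so that genes that go with Ccl5 from cell to cell differ between the groups as a matter of course. A gene needed a UMI in 10% of the cells of either group, so that genes near 0 in the Ccl5-low cells could only come out lower. Klrc1, Tbx21 and Zeb2, with no UMI there, are among them, so that the counts per list are no test of identity. The same holds the other way for genes with few UMIs in the Cd8 T cells with Ccl5. Ccr9, Igfbp4, Ramp1, Itgae, Rgcc, Tanc1 and Treml2 passed the filter only through the Ccl5-low cells, which largely set their direction in advance.

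Of the naive T cell list, 27 of 30 genes were tested, 10 were higher and none lower, and the median log2 fold change was 0.66 against -0.07 over all genes tested. The chemokine receptor Ccr9, which directs cells to the gut and is carried by cells recently out of the thymus, was at 82.3 and 101 CPM in the young Ccl5-low cells and at 4.07 and 4.48 CPM in the young Cd8 T cells with Ccl5. In the old samples it was at 0 and 84.8 CPM (1 UMI) and at 4.46 and 0 CPM. Its log2 fold change was 4.18 (SE 0.49, adjusted p = 5.6e-15, edgeR), with a direction that the filter had fixed. Igfbp4, which binds insulin-like growth factors, was at 285 and 229 CPM against 14.3 and 40.3 CPM in young samples (3.33, SE 0.32, adjusted p = 4.4e-22, edgeR).

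Ramp1, a subunit of the receptor for calcitonin gene-related peptide, was at 107 and 79.3 CPM against 8.14 and 15.7 CPM in the young samples, and at 0 in both old samples of Ccl5-low cells, where 3 UMIs would be 175 and 254 CPM (2.94, SE 0.41, adjusted p = 1.2e-10, edgeR). Itgae, the alpha E integrin that holds cells to epithelium, was at 50.2 and 33.5 CPM against 4.07 and 6.72 CPM (2.78, SE 0.53, adjusted p = 1.1e-05, edgeR). Dapl1 was higher by 2.38 (SE 0.25, adjusted p = 6.3e-19, edgeR) and Lef1 by 1.35 (SE 0.24, adjusted p = 8.2e-07, edgeR). The young and old samples of Cd8 T cells with Ccl5 had 165, 91.8, 62.5 and 58.8 CPM of Dapl1, all below the values of the Ccl5-low cells in the same samples. Ccr7, Actn1, S1pr1 and Ssbp2 were the other called members, by 1.55, 1.59, 0.80 and 1.34. Lef1 and Actn1 lost their call without young sample 2, and Itgae under 2 alternatives, DESeq2 among them. Tcf7 (0.66, SE 0.24, adjusted p = 0.11, edgeR), Il7r (0.07, adjusted p = 0.97) and Klf2 (0.11, adjusted p = 0.97) did not pass the test, the last being a factor that drives S1pr1.

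Outside the list, Rgcc, a regulator of the cell cycle, had the largest log2 fold change among the called genes that were higher in all 4 samples. It was at 191, 149, 116 and 254 CPM in young samples 1 and 2 and old samples 1 and 2 of the Ccl5-low cells and at 16.3, 11.2, 13.4 and 24.5 CPM in the Cd8 T cells with Ccl5 (3.46, SE 0.35, adjusted p = 5.3e-20, edgeR). Fam101b, Tanc1, Treml2 and Fam78a were higher by 1.43 to 1.49. Tanc1 lost its call when any 1 sample was left out, and Fam101b and Treml2 when either young sample was. Slamf6, a receptor of the signaling lymphocyte activation family kept on naive and early memory cells, was higher by 1.20 (SE 0.26, adjusted p = 0.00016, edgeR), and Il6ra, the interleukin 6 receptor, by 1.25 (SE 0.34, adjusted p = 0.0079, edgeR).

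Of the memory list, 33 of 40 genes were tested, 21 were lower and none higher, with a median of -1.55. S100a6 was at 61.4, 61.0, 233 and 254 CPM in the Ccl5-low cells and at 430, 643, 1933 and 2137 CPM in the Cd8 T cells with Ccl5 of the same samples (-3.10, SE 0.29, adjusted p = 2.3e-23, edgeR). Il2rb, the receptor chain for interleukins 2 and 15, was at 44.7 and 36.6 CPM against 289 and 266 CPM in young samples (-2.67, SE 0.29, adjusted p = 1.8e-17, edgeR). Cd44, the receptor by which memory T cells are sorted, was at 14.0 and 15.2 CPM against 59.0 and 49.3 CPM (-1.86, SE 0.44, adjusted p = 0.0010, edgeR), a call lost without either young sample and under DESeq2. The transcription factors Eomes and Id2 were lower by 2.21 and 1.63 on the log2 scale, and the chemokine receptor Cxcr3 by 2.76. Tbx21 and Zeb2, further regulators of effector cells, had no UMI in the Ccl5-low cells. Against the 3 counts that a 0 allows over the young samples, Tbx21 was at least 13.4-fold and Zeb2 at least 16.3-fold lower.

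Of the cytotoxic list, 19 of 22 genes were tested and 15 were lower, with a median of -4.69. Gzmm, granzyme M, was at 9.77 and 6.10 CPM in young Ccl5-low cells and 153 and 82.8 CPM in the Cd8 T cells with Ccl5 (-3.99, SE 0.43, adjusted p = 1.0e-17, edgeR). Gzmb, granzyme B, had 3 UMIs in 321 young Ccl5-low cells against 138 in the other group, a 51.2-fold difference (exact 95% counting interval 17.2 to 251). Ccl4 and Ccl3, chemokines made on stimulation, had 3 and 1 UMIs in the young Ccl5-low cells, and 420 of the 437 Ccl4 and 341 of the 344 Ccl3 UMIs of the young Cd8 T cells with Ccl5 were in young sample 2. Klrc1, an inhibitory receptor of the NKG2 family, had none, at least 35.6-fold lower. Osbpl3 and S1pr5 also had none, at least 13.7-fold and 9.65-fold lower. Klra7, a Ly49 receptor of a family of near-identical genes among which reads could be split, had 2 UMIs, a 68.5-fold difference (18.6 to 572).

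Not every cytotoxic gene was near 0. Nkg7, a protein of cytotoxic granules, was at 809, 680, 814 and 1356 CPM in the Ccl5-low cells and at 1657, 2528, 2257 and 2515 CPM in the Cd8 T cells with Ccl5 (-1.47, SE 0.30, adjusted p = 8.5e-05, edgeR). Klrd1, the partner chain of the NKG2 receptors, was also lower (-0.92, SE 0.24, adjusted p = 0.0035, edgeR), and Ctsw, cathepsin W, had no call (-0.29, SE 0.23, adjusted p = 0.81). The survival factor Bcl2 was at 526 and 381 CPM against 774 and 681 CPM in young samples (-0.81, SE 0.25, adjusted p = 0.026, edgeR), and H2afz and Hmgb2, chromatin proteins that rise in dividing cells, were lower by 1.16 and 0.99. Genes for peptide loading on MHC class I (26 tested), oxidative phosphorylation (77 tested) and ribosomal proteins (81 tested) held no call. Without young sample 1 the counts were 15 higher and 51 lower, without young sample 2 they were 10 and 54, and DESeq2 gave 13 and 45.

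**Figure D3:**
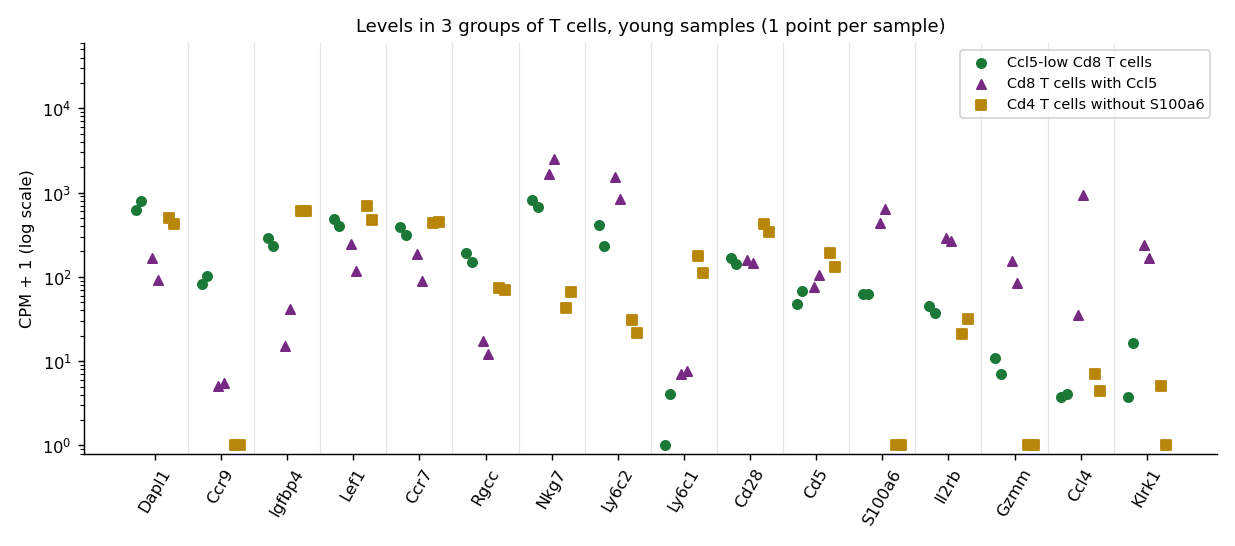
Levels of 16 genes in CPM + 1 (vertical log axis) in the Ccl5-low Cd8 T cells (circles), the Cd8 T cells with Ccl5 (triangles) and the Cd4 T cells without S100a6 (squares), 1 point for each of the 2 young samples. S100a6 is 0 in the Cd4 T cells by their rule, Ccr9 and Gzmm were also at 0 there, and Nkg7 and Ly6c2 of the Ccl5-low Cd8 T cells lie between the 2 other groups.

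The second comparison was with the Cd4 T cells without S100a6, to set the Ccl5-low Cd8 T cells against naive-like cells of the other lineage. These were 306 cells with at least 1 Cd3 and 1 Cd4 UMI, none of Cd8a, Cd8b1, S100a6, Gzmk and Foxp3 and the same limits on Ccl5, Cd79a and Lyz2. Of 3119 genes tested, 50 were higher in the Ccl5-low Cd8 T cells (1.6%) and 51 lower (1.64%) by edgeR. Genes of the cytotoxic lineage were the clearest among those that were higher, although these cells were naive-like by their other genes. Irrespective of the test, 4.81% of genes were higher and 9.78% lower in all 4 samples.

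Nkg7 was at 809 and 680 CPM in the young Ccl5-low Cd8 T cells and at 42.1 and 64.8 CPM in the young Cd4 T cells, and had 30 UMIs in the old Ccl5-low cells and none in the old Cd4 T cells (4.04, SE 0.17, adjusted p = 4.55e-119, edgeR). Of the cytotoxic list, 4 of 8 genes tested were higher and none lower: Nkg7, Klrd1 (2.99, SE 0.29), Ctsw (2.19, SE 0.24) and the cystatin Cst7 (2.06, SE 0.39, higher in 3 of 4 samples). Runx3, the transcription factor that sets the Cd8 lineage, was at 107 and 70.1 CPM against 36.1 and 37.5 CPM in young samples, and higher in 3 of 4 samples (1.37, SE 0.33, adjusted p = 0.0024, edgeR). Dpp4, a surface peptidase, Dnajc15, a mitochondrial chaperone, Plac8 and Tmem108 were higher by 2.13, 2.00, 1.91 and 1.75. Dnajc15 and Plac8 kept their calls under 9 alternatives. Dpp4 kept its call under 5 and lost it under 3, and Tmem108 kept it under 4 and lost it under 4. Dpp4 and Tmem108 had 1 UMI in each old sample of Ccl5-low Cd8 T cells. Klrd1, Cst7, Runx3, Dpp4 and Tmem108 passed the filter only through the Ccl5-low Cd8 T cells. Their direction was largely set in advance and is no test of identity.

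Ly6c2 and Ly6c1 encode near-identical surface proteins from neighboring genes on chromosome 15 (chr15:75108161-75112066 and chr15:75044018-75048920), and the counting could split reads between them, so that their values are uncertain. Ly6c2 was at 414, 232, 1105 and 1017 CPM in the Ccl5-low Cd8 T cells and at 30.1, 20.5, 53.4 and 39.5 CPM in the Cd4 T cells (3.81, SE 0.23, adjusted p = 3.3e-56, edgeR). Ly6c1 went the other way, with 1 UMI in the young Ccl5-low Cd8 T cells and 120 in the young Cd4 T cells, a 158-fold difference (exact 95% counting interval 27.9 to 6300). Ly6c2 passed the filter only through the Ccl5-low Cd8 T cells and Ly6c1 only through the Cd4 T cells. The direction of both was largely set in advance. Ly6a, or Sca-1, was at 51.6, 57.9, 291 and 424 CPM against 164, 147, 855 and 672 CPM (-1.44, SE 0.24, adjusted p = 1.3e-07, edgeR).

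The naive list split between the lineages, with 5 of 28 tested genes higher and 3 lower and a median of -0.30 against -0.01 over all genes tested. Ccr9 had 92 UMIs in young Ccl5-low Cd8 T cells and none in young Cd4 T cells, which makes it at least 23.2-fold higher. Itgae had 47 UMIs against 1, a 35.6-fold difference (exact 95% counting interval 6.09 to 1440). Both genes count among the 5, but they passed the filter only through the Ccl5-low Cd8 T cells. Their direction was fixed in advance and is no test of identity. Dapl1 was at 621 and 796 CPM against 503 and 423 CPM in young samples and higher in 3 of 4 samples (0.58, SE 0.11, adjusted p = 1.5e-05, edgeR), and Evl was higher by 0.44 (SE 0.13, adjusted p = 0.029). Igfbp4 (-1.20, SE 0.12, adjusted p = 1.4e-20, edgeR), Tspan32 (-1.56, SE 0.17) and Lef1 (-0.38, SE 0.11, adjusted p = 0.024) were lower. Igfbp4 was at 285 and 229 CPM against 601 and 601 CPM. Dapl1 lost its call without young sample 1 or 2 and under DESeq2, as did Lef1. The calls of Ccr9, Itgae, Igfbp4 and Ly6c1 were also lost under DESeq2. In all, Itgae lost its call under 3 alternatives and kept it under 4, and Lef1 lost it under 5 and kept it under 4. Without young sample 1 the calls of Ly6a, Cd28, Cd5, Cd9, Pdlim4, Nxpe3, Izumo1r and Zbtb7b were lost.

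Of the 7 listed Cd4 lineage markers 2 were tested, Cd40lg and Izumo1r, and both were lower in the Ccl5-low Cd8 T cells. Zbtb7b, the factor that sets the Cd4 lineage, had 3 UMIs against 36 in young samples, a 15.8-fold difference (exact 95% counting interval 5 to 80.3), and Cd40lg, the helper ligand for B cells, 2 against 49, a 32.3-fold difference (8.48 to 274). Pdlim4 had 3 against 48, a 21.1-fold difference (6.80 to 106). Cd40lg, Zbtb7b and Pdlim4, and Nxpe3 and Cd9 named below, passed the filter only through the Cd4 T cells. Their direction was fixed in advance and is no test of identity. The coreceptor Cd28 was at 166 and 140 CPM against 427 and 338 CPM in young samples (-1.30, SE 0.15, adjusted p = 2.1e-16, edgeR), and in old samples at 175 and 170 CPM against 160 and 751 CPM. The inhibitory coreceptors Cd5 (-1.73, SE 0.26) and Cd6 (-1.19, SE 0.21) were also lower, as were Nxpe3, Izumo1r, a folate receptor of Cd4 T cells, and Cd9, by 2.63, 1.98 and 1.84 on the log2 scale. Of genes of T cell receptor signaling, 3 of 23 tested were lower (Cd247, Cd28 and Fyb) and 1 was higher (Ptpn22, a phosphatase that restrains the receptor). Without young sample 1 the counts were 11 higher and 6 lower, without young sample 2 they were 10 and 16, and DESeq2 gave 6 and 7.

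**Figure D4:**
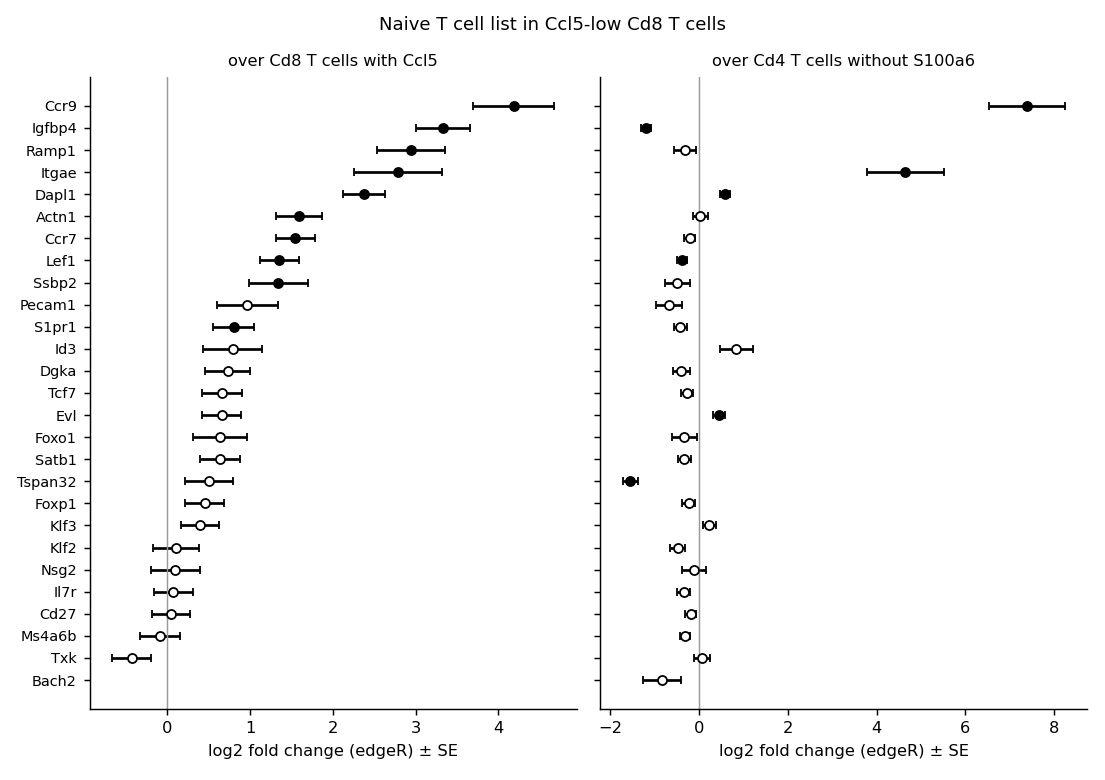
Log2 fold changes (horizontal axis, edgeR, ± SE) of the naive list in Ccl5-low Cd8 T cells over Cd8 T cells with Ccl5 (left) and over Cd4 T cells without S100a6 (right), with called genes filled. Ccr9, Itgae and Dapl1 are called higher in both panels, while Igfbp4 and Lef1 are called higher on the left and lower on the right. In both panels Ccr9 and Itgae passed the filter only through the Ccl5-low Cd8 T cells.

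The young Ccl5-low cells also varied among themselves. Ly6c2, which was not part of the rule, had no UMI in 229 of 321 young cells (71.3%), 1 or 2 in 40 and 3 or more in 52 (16.2%), and the group with 3 or more made up 17.0% and 14.3% of the 2 young samples. Across these groups in order Ccr7 was at 414, 364 and 204 CPM, Itgae at 62.8, 12.99 and 9.69 CPM and Cxcr3 at 4.38, 6.50 and 67.8 CPM. Dapl1 was at 611, 818 and 785 CPM and Lef1 at 487, 448 and 383 CPM, so that cells with much Ly6c2 still had both naive markers. In each young sample taken alone the group with 3 or more had less Ccr7 than the group with none, 247 against 436 CPM and 76.4 against 369 CPM. Cxcr3 was at 2.2, 9.2 and 84.4 CPM in young sample 1 and at 8.69, 0 and 19.1 CPM in young sample 2. Most of its rise thus came from young sample 1. These are descriptions over cells of 2 pools, whose median depth rose from 2998 to 3569 and 3735 UMIs across the groups.

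Age was compared within the Ccl5-low Cd8 T cells over 2352 genes with a UMI in at least 10% of the cells of each age, which for 9 old cells means at least 1 cell. No gene was called by edgeR in either direction (0% of genes tested), and 138 had an unadjusted p under 0.05. All old cells together held 28988 UMIs. The median log2 fold change over all genes tested was -0.32 with TMM scaling and -0.19 with RLE scaling, so that values are to be read relative to it. Both old samples lay above both young ones for 15.3% of genes and below them for 15.9%. In such sums per sample, a change in a few cells and in all cells cannot be told apart.

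Dapl1 was at 621 and 796 CPM in the young samples and at 233 CPM (4 UMIs) and 170 CPM (2 UMIs) in the old (-2.01, SE 0.49, adjusted p = 0.12, edgeR), with both old samples below both young ones. It had a UMI in 2 of 9 old and 198 of 321 young cells. Lef1 overlapped between the ages, at 487 and 403 CPM and at 116 and 593 CPM (-0.79, SE 0.45, adjusted p = 0.94). Ccr7 was at 388 and 314 CPM and at 233 and 763 CPM (0.08, SE 0.41, adjusted p = 0.99). Klf2 was at 1649 and 1006 CPM and at 175 CPM (3 UMIs) and 1102 CPM (-1.54, SE 0.35, adjusted p = 0.12), with the old samples far apart. Of the naive list, 24 of 30 genes passed the filter, 19 had a negative value, and the median was -0.69 against -0.32 over all genes tested. In both old samples 7 lay lower and 1 higher, beside 15.9% and 15.3% of all genes tested. The filter left out list members with no UMI in the 9 old cells, such as Ramp1 with 103 and Itgae with 47 UMIs in young cells. Such a 0 allows up to 103 CPM, and the summaries of all lists leave out genes of this kind.

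Ly6c2 stood at 414 and 232 CPM in young and at 1105 and 1017 CPM in old samples (1.41, SE 0.35, adjusted p = 0.12, edgeR), in 92 of 321 young and 5 of 9 old cells. Ly6a was at 51.6 and 57.9 CPM and at 291 and 424 CPM, with 5 UMIs in each old sample (2.43, SE 0.67, adjusted p = 0.17, edgeR). S100a6 was at 61.4 and 61.0 CPM and at 233 and 254 CPM, on 4 and 3 UMIs (1.73, SE 0.74, adjusted p = 0.77). For all 3 genes the old values did not overlap with the young and were the higher, as for 15.3% of all genes tested. Of the memory list, 20 of 40 genes passed the filter, with a median of 0.42 against -0.32 over all genes tested. In both old samples 6 were higher and 3 lower, beside 15.3% and 15.9% of all genes tested.

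Ribosomal protein genes were negative in 80 of 80 tested, with a median of -0.62 against -0.32 over all genes tested. Of them, 61 lay lower in both old samples, beside 15.9% of all genes tested, yet edgeR called none. Of 24 genes for MHC class I presentation the median was -0.04, above that over all genes tested. In both old samples 5 were higher and 1 lower, beside 15.3% and 15.9% of all genes tested. The cell cycle inhibitors Cdkn1a and Cdkn2a, used as marks of senescence, had no UMI in 9 old or 321 young cells, which over the old cells allows up to 103 CPM, and no more can be said at this depth.

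The age calls moved with the processing. DESeq2 called Ly6c2 higher (log2 fold change 1.61, adjusted p = 0.039) and Rps4x, Rps15a, Rpl3, Actb, Tmsb10 and Ppia lower. With the haemoglobin-rich cells left out, edgeR called Ly6c2 higher (1.41, adjusted p = 0.034) and Dapl1 (-2.01, adjusted p = 0.034) and Klf2 (-1.49, adjusted p = 0.034) lower. Leaving out young sample 1, young sample 2, old sample 1 or old sample 2 gave 0, 3, 2 and 5 genes higher and 0, 0, 91 and 26 lower, of which 68 and 16 without old samples 1 and 2 were ribosomal protein genes. Where a UMI in 10% of the cells of either age was enough, 3 genes were higher and 236 lower, a filter that lets in genes with no UMI in the 9 old cells.

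**Figure D5:**
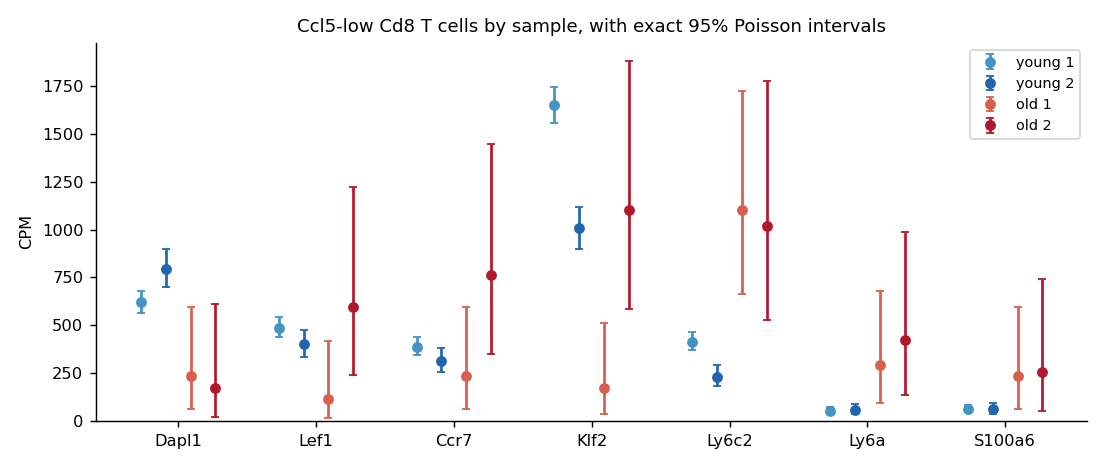
Levels of 7 genes in CPM (vertical axis) in the Ccl5-low Cd8 T cells of each sample, with exact 95% Poisson intervals. Dapl1 is lower and Ly6c2, Ly6a and S100a6 are higher in both old samples than in both young ones, on wide intervals that rest on 5 and 4 old cells.

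The 9 old cells were examined one by one. The number of naive list genes with a UMI was 1 in the haemoglobin-rich cell of old sample 1 and 6 to 14 in its other 4 cells, and 9 to 15 in the 4 cells of old sample 2. The 4 Dapl1 UMIs of old sample 1 came from 1 cell with 5978 UMIs, and the 2 of old sample 2 from 1 cell. Of the 31 Ly6c2 UMIs, 30 were in 4 cells, with 10, 8, 4 and 8 UMIs. Cd44 had 1 UMI in 1 cell, and Gzmm none, against 15 and 9 of 321 young cells with a UMI. S100a6 had a UMI in 5 of 9 old and 43 of 321 young cells, and Ly6a in 3 of 9 and 46 of 321. Cd8b1 had a UMI in 7 of 9 old and 318 of 321 young cells. Those without it were the haemoglobin-rich cell and the cell of old sample 2 that held the Cd44 UMI and 2 S100a6 UMIs. No young value stands beside the numbers of naive list genes.

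Since the split by Ccl5 leaves so few old cells, age was also compared over all 747 Cd8 T cells without the limits on Ccl5 and Gzmk, a comparison added after the data had been seen. It mixes the share of Ccl5-low cells with the level within cells. Within the Cd8 T cells with Ccl5 alone, Ly6a was at 46.8 and 38.1 CPM in young and 319 and 382 CPM in old samples, S100a6 at 430 and 643 CPM and at 1933 and 2137 CPM, and Gzmm at 153 and 82.8 CPM and at 375 and 333 CPM. For these 3 genes the old values over all Cd8 T cells lay above the young values of both kinds of cell. Only these 3 are set out here in this way, and the part of the share in the calls below was not tested. Of 2831 genes tested, 39 were higher (1.38%) and 25 lower (0.883%) in old samples by edgeR. Dapl1 was at 436 and 390 CPM in young and 68.8 and 64.9 CPM in old samples (-2.67, SE 0.17, adjusted p = 3.1e-05, edgeR), and Lef1 at 388 and 238 CPM and at 129 and 120 CPM (-1.37, SE 0.23, adjusted p = 0.015, edgeR). Of the memory list, 12 of 25 genes tested were higher and none lower, among them S100a6 (2.65), Ly6a (2.79), Eomes (1.54) and Cd44 (1.30). Gzmm was higher by 2.46 and Klrk1, an activating receptor of cytotoxic cells, by 1.54, and 10 of 81 ribosomal protein genes were lower.

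Finally, the difference with age in the Ccl5-low Cd8 T cells was set against that in the Cd4 T cells without S100a6 by the interaction of age and cell group. Of 3119 genes, 4 had a higher difference in the Ccl5-low Cd8 T cells (0.128%) and 8 a lower one (0.256%) by edgeR, while DESeq2 called none (85 at an unadjusted p under 0.05). The 4 were the haemoglobin genes Hbb-bs, Hbb-bt, Hba-a1 and Hba-a2. Ifi27l2a, an interferon-induced gene, was at 512, 372, 756 and 509 CPM in the Ccl5-low Cd8 T cells and at 806, 427, 4113 and 2688 CPM in the Cd4 T cells (interaction -1.86, SE 0.30, adjusted p = 5.5e-06, edgeR). The other named genes with a lower difference were Ptma, H2afz, Hmgb2 and Tuba1b. The Cd4 side rests on 7 and 9 old cells. A single Cd4 T cell of old sample 2 held 28 of that sample's 30 Hmgb2 UMIs, 18 of 20 for Tuba1b, 16 of 29 for H2afz, 32 of 56 for Ptma and 53 of 68 for Ifi27l2a, and another in old sample 1 held 42 of 77 Ifi27l2a UMIs. The cell of old sample 2 also had 2 UMIs of Mki67 and 5 of Top2a, from the cell cycle list, and no other old Cd4 T cell had any. The interaction counts were 0 higher and 1 lower without young sample 1, 3 and 2 without young sample 2, 0 and 5 without old sample 1 and 6 and 1 without old sample 2.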

How the data were processed

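Peripheral blood cells of 2 young and 2 old pooled samples were profiled with 10x Chromium 3′ libraries. Reads had been demultiplexed and UMIs counted by the authors using Cell Ranger and the mm10 reference. They joined the samples of each age, filtered cells with Seurat 2.3.0 on genes detected and mitochondrial share, and deposited whole UMI counts per gene and cell without normalization. Not given in the sources used here were the annotation release and any equalising of depth. The deposited counts hold 14697 genes in 14588 cells, and the sample of each cell came from the deposited list of cells. P-values take the pool as the replicate. edgeR shares the spread between pools across genes, so that the spread of a single gene can weigh little in its p-value.

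The members, the gene lists and the comparisons were chosen with earlier results of these data known. Cells were selected by UMI limits, UMIs were summed per sample and cell group, and sums were tested with edgeR 4.0.16 (quasi-likelihood, TMM, Benjamini-Hochberg over all genes tested, threshold 0.05). The 9 genes of the rule were not tested, nor Cd4, S100a6 and Foxp3 against the Cd4 T cells. Genes needed a UMI in 10% of cells, of each age for age and of either group between groups, where the sample was a block. Shares were compared by a two-sided exact permutation test, with exact binomial 95% intervals. A count of 0 was taken to allow 3 counts, over the young samples for folds. Cells were thinned to 1000 UMIs for shares with a UMI, and none was shallower. No doublet call is described and no caller was run here. Leaving out the 5% of cells with the most UMIs per sample was tried. Alternatives were DESeq2 1.42.0, RLE scaling, other filters, a replicate block, other limits and leaving out each sample. Of these, the wider Cd8 limit, all Cd8 T cells, young samples only, and leaving out cells with over 10% haemoglobin were chosen after seeing the data. Named genes were the rule's genes and markers, members of the lists, the 8 called genes per direction with the largest fold change in all 4 samples, the 5 interaction genes per direction with the smallest p, and genes the study names for T cells. Dapl1 in single old cells, Klf2 with age, Ly6c2 groups and the 4 promoters were chosen after their values were seen. A gene of the naive list counts in its totals but is not reported here by name or in the plots. Tests were tested on simulated data. The software was R 4.3.3 and Python 3.11.15 with matplotlib 3.10.9, pandas 2.3.3, scipy 1.17.1 and numpy 2.4.6.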

Additional observations from a re-analysis of the deposited data

Results flagged for a closer look

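The difference with age was not the same in the Ccl5-low Cd8 T cells and the Cd4 T cells without S100a6 for these genes, by the edgeR test of the interaction. For Hbb-bt the difference was higher in the Ccl5-low Cd8 T cells by 4.41 on the log2 scale, for Hba-a2 by 3.22, for Hba-a1 by 3.11 and for Hbb-bs by 2.42. In old sample 1, 1 of the 5 Ccl5-low Cd8 T cells held 2219 of 2360 Hbb-bs UMIs. Without haemoglobin-rich cells the values were 0.18, -0.35, -0.61 and -0.26, with no call.

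Ifi27l2a had an interaction of -1.86, Hmgb2 -3.36, H2afz -2.34, Tuba1b -9.63 and Ptma -1.49. Tuba1b had no UMI in the old Ccl5-low Cd8 T cells, so that its fitted value is no bound on the change. None of the 5 was called without old sample 2 (adjusted p = 0.18 to 0.72, edgeR) or under DESeq2 (adjusted p = 0.9996). Leaving out 1 sample gave -2.28 to -1.56 for Ifi27l2a, -11.59 to -1.40 for Hmgb2, -2.55 to -1.93 for H2afz, -10.82 to -7.83 for Tuba1b and -1.55 to -1.39 for Ptma, with -1.40 for Hmgb2 without old sample 2 and -11.59 without old sample 1, where no Hmgb2 UMI was left in old Ccl5-low cells. The old groups were 9 and 16 cells, and the part of single cells in these values was not tested.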

How the results depend on the processing

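The lower share in old samples kept its direction for all 3 denominators under the alternatives that kept a limit on Ccl5. Among these it moved by more than the spread between pools for Cd8 T cells with Ccl5 = 0, to -28.0 percentage points from -50.4. With no limit on Ccl5 or Gzmk all Cd8 T cells are taken, whose share of cells with Cd3 UMIs was 27.6% and 19.0% in the young samples against 37.0% and 26.6% in the old. Leaving out 1 sample gave -58.2 to -42.5 points among Cd8 T cells, -15.9 to -7.48 among cells with Cd3 UMIs and -5.57 to -2.40 among all cells.

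For age, genes called higher and lower were 0 and 0, and 1 and 6 with DESeq2, 5 and 3 with RLE scaling, 3 and 236 with the filter in either age, 4 and 157 with no filter, 0 and 2 with the rule on thinned cells, 1 and 7 with at least 3 Cd8a and Cd8b1 UMIs, 4 and 113 without the cells with the most UMIs, 1 and 16 without red cell, platelet and B cell marker genes, 4 and 1 with 1 Cd8 UMI and no Cd4 UMI, 1 and 2 without haemoglobin-rich cells and 39 and 25 over all Cd8 T cells. Leaving out 1 sample gave 0 to 5 higher and 0 to 91 lower. The cause was not tested. Deviations of samples with the same number from their age means had r = -0.08. With 2 samples per age this is the same value for both pairs by construction, so that it cannot decide whether the numbers pair the samples. With the replicate block 1 gene was higher and 1 lower. The age fit with Cd79a = 0 and Lyz2 = 0 could not be run, since old sample 1 then had 0 cells.

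Ccr7 was positive with age and turned to -0.58 with the filter in either age, -0.56 with none, -0.13 with Ccl5 = 0, -0.0014 with 3 Cd8 UMIs, -0.010 without the cells with the most UMIs, -0.81 with 1 Cd8 UMI and -1.48 over all Cd8 T cells. Leaving out 1 sample gave -0.59 to 0.44 for Ccr7, negative without young sample 2 (-0.03) or old sample 2 (-0.59). S100a6 turned to -0.22 with the rule on thinned cells.

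Against the Cd8 T cells with Ccl5, genes higher and lower were 44 and 113, and 13 and 45 with DESeq2, 26 and 87 with filterByExpr, 23 and 73 with the rule on thinned cells, 76 and 122 in young samples only, and 10 to 45 and 51 to 103 when 1 sample was left out. Against the Cd4 T cells they were 50 and 51, and 6 and 7, 28 and 31, 24 and 27, 76 and 57, and 10 to 68 and 6 to 63. Of 211 and 206 values of named genes under these alternatives, 184 and 165 kept their call and 27 and 41 lost it, with none reversed.

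The interaction gave 4 and 8, and 0 and 0 with DESeq2, 1 and 1 with filterByExpr, 0 and 10 with the rule on thinned cells, 0 and 6 without haemoglobin-rich cells, and 0 to 6 and 1 to 5 when 1 sample was left out. With the rule on thinned cells Hbb-bt was -1.47, Hba-a2 -1.58, Hba-a1 -2.34 and Hbb-bs -1.24, and without haemoglobin-rich cells Hba-a2 was -0.35, Hba-a1 -0.61 and Hbb-bs -0.26. The age comparison rests on 28988 UMIs in 9 old cells.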
